A study of Mus musculus with 4 samples.

Results

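The Rhox genes are a cluster of X-linked homeobox genes, named for their expression in reproductive tissues. The 8 genes examined were Rhox1, Rhox5, Rhox6, Rhox9, Rhox10, Rhox11, Rhox12 and Rhox13, each followed through a probe set to which the platform annotation gives exactly 1 symbol. Of these 8 genes, 7 were measured, each by 1 probe set, among 19938 genes in all. Rhox5 matched no such probe set and is not analysed here. Where a gene had several probe sets, one was chosen by the highest mean over the 4 arrays, which decided nothing for the 7 because each had a single probe set.

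The arrays profiled E14 mouse embryonic stem cells, a line of the inbred 129 strain, on Affymetrix MoGene 1.0 ST arrays. There were 2 arrays of control cells and 2 of cells carrying a knockdown of Kdm2b. Kdm2b is a histone demethylase that binds unmethylated CpG-rich DNA and belongs to a variant of Polycomb repressive complex 1 (PRC1), and the series asks whether it keeps stem cells in their state by bringing that complex to lineage genes. Per the labels, all cells grew on gelatin in 15% serum with leukemia inhibitory factor at 1000 units/ml. The one transduction protocol given for all 4 samples used lentiviral vectors at 10 MOI, with puromycin at 2 µg/ml from 48 h onward. The labels do not state the vector of the control cells, the knockdown sequence, nor whether replicates came from different cultures. The p-values therefore rest on the spread among these arrays alone, which may be technical.

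Kdm2b itself had log2 values of 10.74 and 10.64 in the control and of 9.20 and 9.19 in the knockdown samples. It fell by 1.50 (SE 0.066, adjusted p = 0.0039, limma). All 10 markers fixed for embryonic stem cells were above the median of all probe sets (8.52) in their mean over the arrays, from 11.64 upward, and limma called 0 of them, with 3 at an unadjusted p under 0.05. The median log2 value of the arrays ran from 8.49 to 8.55, and replicate arrays correlated at r = 0.9963 and 0.9966 across probe sets.

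Rhox proteins are transcription factors with a homeodomain, the DNA-binding module shared with Hox proteins. In the mouse the cluster is divided by position into an alpha group (Rhox1 to Rhox4), a beta group (Rhox5 to Rhox9) and a gamma group (Rhox10 to Rhox13), and the Rhox2, Rhox3 and Rhox4 genes have been copied many times. Most members are expressed in testis, ovary or placenta, and DNA methylation of the cluster is known to keep many of them silent in other cells. Rhox6 and Rhox9, also called Psx1 and Psx2, are closely related genes known from placenta and germ cells.

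Since Kdm2b reads CpG-rich DNA, the CpG content of the start sites is shown first. RefSeq windows on GRCm38.p6 ran from 250 bases before to 50 after a gene's start. They were matched for 6 of the 8 genes, namely Rhox1, Rhox5, Rhox10, Rhox11, Rhox12 and Rhox13. Rhox6 and Rhox9, the genes called lower below, had no window, so the CpG and motif counts do not cover them. The 250 bases before the start are printed for 3 of the 6 genes with a window, 5′ to 3′ along the gene, with each CpG in capitals. Rhox1 is shown for the fewest CpG, Rhox10 for the most and Rhox13 as the gene with the smallest difference in size. The Rhox1 stretch lies at chrX:37222259-37222508 on the minus strand, that of Rhox10 at chrX:38066225-38066474 and that of Rhox13 at chrX:38120590-38120839, both on the plus strand.
Rhox1: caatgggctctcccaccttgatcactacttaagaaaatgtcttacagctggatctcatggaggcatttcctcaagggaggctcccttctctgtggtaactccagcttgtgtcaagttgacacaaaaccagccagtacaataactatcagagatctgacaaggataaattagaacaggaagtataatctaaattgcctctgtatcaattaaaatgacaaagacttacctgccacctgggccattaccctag
Rhox10: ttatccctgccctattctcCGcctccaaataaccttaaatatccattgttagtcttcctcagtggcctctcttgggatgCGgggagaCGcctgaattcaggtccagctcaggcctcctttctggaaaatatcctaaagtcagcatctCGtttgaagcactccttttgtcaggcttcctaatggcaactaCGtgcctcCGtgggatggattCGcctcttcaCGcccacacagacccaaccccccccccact
Rhox13: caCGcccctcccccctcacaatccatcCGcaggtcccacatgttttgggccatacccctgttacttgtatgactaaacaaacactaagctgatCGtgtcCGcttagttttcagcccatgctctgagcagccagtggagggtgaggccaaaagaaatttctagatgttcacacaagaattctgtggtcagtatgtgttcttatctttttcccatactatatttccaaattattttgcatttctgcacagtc

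The 300-base window of Rhox1 held 0 CpG, a count shared by 5.43% of the 32851 windows in the table. Rhox12 had 3, Rhox5 and Rhox13 had 5 each, Rhox11 had 7 and Rhox10 had 9, against a median of 7 over all windows. The ratio of observed to expected CpG ran from 0 (Rhox1) to 0.51 (Rhox11), with a median of 0.38 over all windows. The 21 windows of other Rhox genes held 2 to 12 CpG, with a median of 8. Motifs were searched on both strands of the 300 bases. Among the 6 genes an ETS core (CCGGAAG) was found in Rhox5, and it was also in all 7 Rhox2 windows and in 8.86% of all windows of the table. A GC box (GGGCGG) was found in Rhox12, in all 7 Rhox4 windows and in 35.7% of the table. The AP-2 motif (GCCNNNGGC, 16.6% of windows) and the E-box (CACGTG, 7.15%) matched none of the 6, and the E-box was in 5 of the 7 Rhox4 windows. These matches describe letters in a window and are not binding sites.

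After Kdm2b knockdown Rhox9 and Rhox6 were lower, and the other 5 genes measured did not pass the threshold. Of the 7 genes, 0 were called higher, 2 lower and 5 neither, where 7.19% of all genes tested were called lower, 5% higher and 12.2% either way (an adjusted p under 0.05, limma, adjusted over all genes). At an unadjusted p under 0.05, 0 of the 7 were higher and 3 lower, against 15.1% and 14.7% of all genes. The groups did not overlap for 3 of the 7, all with knockdown below control, where 25% of all genes lay in that order, 33.8% in the opposite order and 58.8% in one or the other. The median difference of the 7 was -0.10 on the log2 scale, against 0.03 over all genes. These genes were chosen with results of the same arrays known, so the counts are a description of the cluster.

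Rhox9 had log2 values of 10.48 and 10.44 in the control samples (mean 10.46 ± 0.028, SD, n = 2), compared with 9.56 and 9.11 after knockdown (mean 9.335 ± 0.32, SD, n = 2). The control arrays were close together, the knockdown arrays were spread over 0.45, and both lay below both controls. Rhox9 fell by 1.125 on the log2 scale (SE 0.14, 95% interval -1.48 to -0.77, adjusted p = 0.0115, limma), a level 2.18-fold lower. In size this change ranked 78 among the genes tested, with 0.386% of them changing more.

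Rhox6 had log2 values of 9.92 and 9.95 in the control samples (mean 9.935 ± 0.021, SD, n = 2), compared with 9.66 and 9.56 after knockdown (mean 9.61 ± 0.071, SD, n = 2). The groups were again separate, by a smaller step. Rhox6 fell by 0.325 (SE 0.067, 95% interval -0.49 to -0.16, adjusted p = 0.0335, limma), a level 1.25-fold lower, and 12.7% of genes changed by more. Both calls were lost when any array was left out, with adjusted p-values of 0.196 to 0.266 for Rhox9 and 0.202 to 0.264 for Rhox6 (limma), fits that leave 1 residual degree of freedom.

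The 2 genes that fell were also set against each other within arrays. Rhox9 minus Rhox6 was 0.56 and 0.49 in the control samples but -0.10 and -0.45 after knockdown, a shift of -0.80. The groups did not overlap. This restates the gap between the changes of the pair, which was picked because both were called, so no test is given. The pair are close relatives, probe sequences were not used here, and signal that one probe set takes from the other gene's RNA was not tested.

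Rhox1, the alpha gene at the start of the cluster, is known from testis. Its log2 values were 9.71 and 9.67 in the control samples (mean 9.69 ± 0.028, SD, n = 2), compared with 9.50 and 9.39 after knockdown (mean 9.445 ± 0.078, SD, n = 2). Both knockdown arrays lay below both controls, but the difference of -0.245 (SE 0.068, 95% interval -0.41 to -0.08) did not pass the threshold (adjusted p = 0.0735, limma). When the arrays were centred on their medians the difference was -0.285 and did pass (adjusted p = 0.0445, limma). A threshold of 0.1 also called it. The other 10 of the 12 alternatives left it uncalled, among them the replicate block (adjusted p = 0.141, limma).

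**Figure D1:**
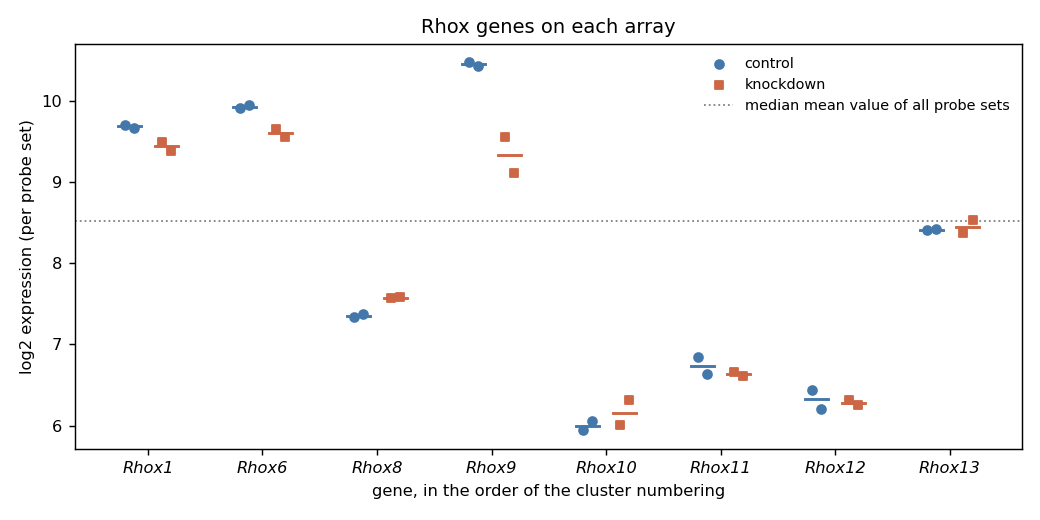
Log2 expression per probe set (vertical axis) of the 7 genes measured and Rhox8 on each array, with control arrays as circles, knockdown arrays as squares, group means as short lines and the median over all probe sets (8.52) as a dotted line. Rhox1, Rhox6 and Rhox9 have both knockdown arrays below both controls, and heights are not comparable between probe sets.

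None of the 4 gamma genes measured was called. Rhox10, a transcription factor known from spermatogonia, had 5.94 and 6.06 in control cells and 6.01 and 6.31 in knockdown cells. The groups overlapped, and the difference was 0.16 (95% interval -0.11 to 0.43). Without knockdown replicate 2 it was 0.01, and without knockdown replicate 1 it was 0.31.

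Rhox11, known from testis, had 6.84 and 6.63 in control cells and 6.66 and 6.61 in knockdown cells. Rhox12, its neighbour, had 6.44 and 6.21 against 6.31 and 6.25. In both genes the control arrays were further apart than the knockdown arrays. The differences were -0.10 (95% interval -0.31 to 0.11) and -0.045 (-0.27 to 0.18).

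Rhox13, known from germ cells and the last gene of the cluster, had 8.41 and 8.42 in control cells and 8.37 and 8.54 in knockdown cells. Its difference was 0.04 (95% interval -0.15 to 0.23), and the knockdown arrays lay on either side of the controls. For these 4 genes the adjusted p ran from 0.386 (Rhox10) to 0.78 (Rhox12) in limma. Their intervals still allow changes of the size seen in Rhox1 for Rhox10 upward and for Rhox11 and Rhox12 downward.

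The 3 genes whose groups did not overlap were also the 3 whose mean over the 4 arrays lay above the median of all probe sets (8.52), with means of 9.57 (Rhox1), 9.77 (Rhox6) and 9.90 (Rhox9). The 4 gamma genes had means of 6.08 to 8.44, under that median. Detection calls were not used here, so whether these probe sets read their genes above background was not tested, and levels were not ranked between genes because probe sets differ in brightness.

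**Figure D2:**
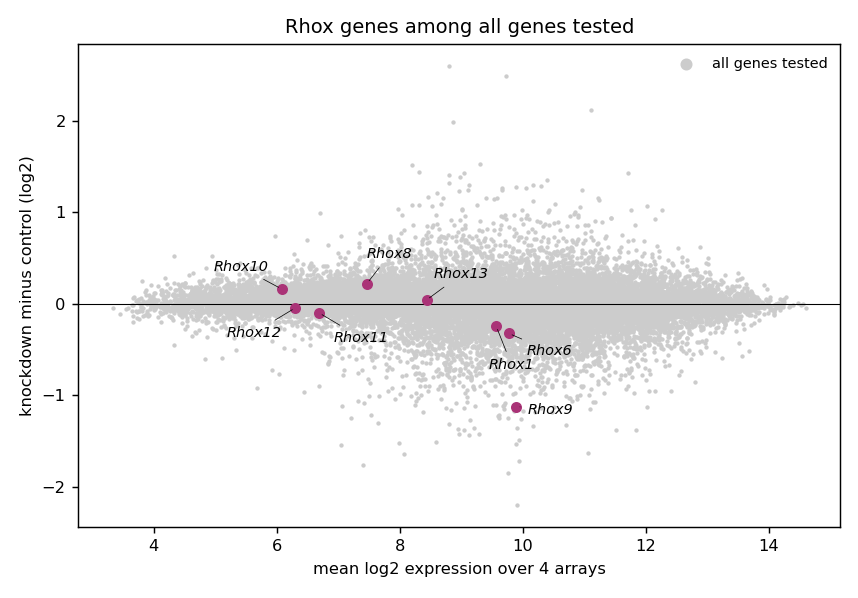
Knockdown minus control (log2, vertical axis) against the mean log2 expression over 4 arrays (horizontal axis) for all 19938 genes tested (grey), with Rhox genes in purple. Rhox9, at -1.125, lies at the lower edge of the cloud, and the gamma genes lie inside it to the left.

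Of 26 further Rhox genes listed, only Rhox8 was measured. Rhox8, a beta gene known from Sertoli and granulosa cells, had 7.34 and 7.37 in control cells and 7.57 and 7.58 in knockdown cells. Both knockdown arrays lay above both controls, an order found in 33.8% of all genes. It was opposite to that of Rhox6 and Rhox9, on either side of Rhox8 in the RefSeq order. The Rhox8 mean of 7.465 lay under the median of all probe sets. The difference of 0.22 (SE 0.06, 95% interval 0.07 to 0.37) did not pass the threshold (adjusted p = 0.0695, limma).

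The genes around the cluster were read in the RefSeq order of GRCm38.p6, beside the 12.2% of all genes that were called either way. Of the 10 measured genes nearest to Rhox1 on its outer side, limma called 0, with 3 at an unadjusted p under 0.05 and a median difference of -0.01. The largest sizes there were Snora69, a small nucleolar RNA, at 0.38, and Nkap at -0.30 (adjusted p = 0.112 and 0.125, limma). Of the 10 nearest to Rhox13, 1 was called higher, 1 lower and 8 neither, with a median of -0.07. At an unadjusted p under 0.05, 2 of these were higher and 3 lower. Lamp2, a lysosomal membrane protein gene, fell by 0.84 (SE 0.083). Gria3, a glutamate receptor gene, rose by 0.805 (SE 0.19, adjusted p = 0.0498, limma), or 0.51 without knockdown replicate 1. The Gria3 mean of 7.43 lay under the median of all probe sets. Between Rhox1 and Rhox13 lay 2 other measured genes, of which limma called 0, with 1 at an unadjusted p under 0.05.

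**Figure D3:**
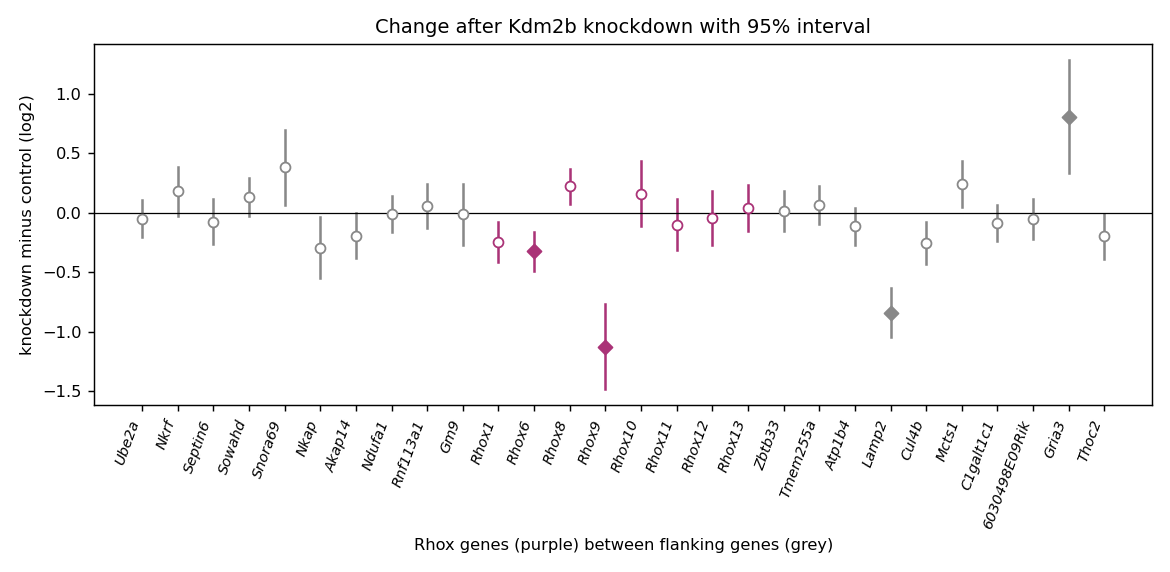
Knockdown minus control (log2, vertical axis) with its 95% interval (bars) for the Rhox genes (purple) and the 10 measured genes on each side (grey), in RefSeq order; filled diamonds mark an adjusted p under 0.05. The called genes are Rhox6, Rhox9, Lamp2 and Gria3. The genes beside each of them did not pass that threshold, which does not show that they were unchanged.

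Other homeobox genes of oocytes, placenta and testis were read alongside. Of 13 listed, 7 were measured, and 0 were higher, 2 lower and 5 neither, with a median of -0.125. Over all genes 7.19% were called lower and 12.2% either way. Obox6, an oocyte homeobox gene, had 7.77 and 7.85 in control cells and 6.50 and 6.03 in knockdown cells, and it fell by 1.545 (SE 0.15), or by 0.925 as the mean of its probe sets. Crxos fell by 0.58 (SE 0.089). Both lay under the median of all probe sets in their mean. Esx1, a placental homeobox gene on the X chromosome that was chosen after its values were seen, had 8.75 and 8.66 in control and 8.60 and 8.56 in knockdown cells, a difference of -0.125 (adjusted p = 0.264, limma).

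Factors that are known to act on Rhox genes or related germline genes were read as 4 lists, which together held 41 measured genes, of which 5 were called (12.2%), the same share as over all genes. Of 16 measured genes for DNA methylation and its readers at the cluster, which include the DNA methyltransferases, Tet enzymes, Uhrf1, Hells and the H3K9 methyltransferases, 1 was higher, 0 lower and 15 neither, with a median of 0.05. The one called was Mbd2, a methyl-CpG binding protein gene, which rose by 0.525 (SE 0.06). Of 7 linker histones measured, H1f10 fell by 0.465 (SE 0.069) and 6 were neither, with a median of -0.035. Of 7 activators of the Rhox5 promoter measured, limma called 0, with 3 at an unadjusted p under 0.05, and the largest sizes were Ncoa1 at -0.37 and Elk1 at -0.185 (adjusted p = 0.094 and 0.143, limma).

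Of 12 genes of the PRC1.6 complex and related repressors of germline genes, 1 was higher, 2 lower and 9 neither, with a median of -0.01. Mga, the scaffold of that complex, fell by 0.365 (SE 0.07) and Yaf2 by 0.31 (SE 0.06), while Ring1, a ubiquitin ligase of PRC1, rose by 0.28 (SE 0.067, adjusted p = 0.0499, limma). The call of Ring1 was lost after quantile normalization, after centring and with an intensity trend (adjusted p = 0.0513, 0.0786 and 0.0553, limma).

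Rhox6 and Rhox9 are known from trophoblast and germ cells, so markers of the cell types a culture could hold were read beside them. Over all genes 5% were called higher and 7.19% lower, the shares to set beside each marker list below. Of 16 trophoblast markers measured, 3 were higher, 2 lower and 11 neither, with a median of 0.015. Tfap2c fell by 1.535 (SE 0.13) and Gata2 by 0.44, whereas Eomes rose by 0.915, Krt8 by 0.79 and Cdx2 by 0.35. Their summed level, on the log2 scale, was 14.88 to 14.91 in control and 14.96 to 14.98 in knockdown cells. The largest term of that sum was Peg10, chosen after its values were seen, at 13.82 and 13.95 in control and 14.02 and 14.08 in knockdown cells with no call (adjusted p = 0.195, limma), so the sum follows that probe set.

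Of 17 markers of primordial germ cells, 3 were higher, 5 lower and 9 neither, with a median of 0.115. The 5 with the largest changes were Tfap2c, Prdm1 (-1.36, SE 0.13), Sycp3 (-1.14), Dppa3 (-0.985), whose probe set was not checked against related genes, and Dazl (0.955). Dppa3 had 2 probe sets, and the number of the probe set kept (10604135) lies between those of Rhox1 (10604111) and Rhox8 (10604148). The mean of the probe set kept, 8.01, lay under the median of all probe sets. Whether that probe set reads Dppa3 itself was not tested. Prdm1, a repressor that specifies germ cells, had 10.57 and 10.61 in control and 9.43 and 9.03 in knockdown cells. As for Rhox9, both knockdown arrays lay below both controls, an order found in 25% of all genes. The summed level of the list was 14.66 on both control arrays and 14.56 to 14.66 in knockdown cells. The largest term of that sum was Ifitm3, chosen after its values were seen. It had 12.81 and 12.96 in control and 13.19 and 13.22 in knockdown cells and was called higher (adjusted p = 0.0459, limma). The sum therefore does not follow the markers that fell.

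Markers of extraembryonic endoderm, a lineage beside the epiblast, were read in the same way. Of 16 measured, 6 were higher, 0 lower and 10 neither, with a median of 0.48 and a summed level of 13.53 to 13.82 in control and 14.31 to 14.66 in knockdown cells. Gata6, which directs that lineage, had 10.07 and 10.04 in control and 11.74 and 12.60 in knockdown cells. Dab2 rose by 1.12 (0.65 as the mean of its probe sets), Srgn by 1.025 (0.62 without control replicate 2), Col4a1 by 0.535 and Sox17 by 0.53 (adjusted p = 0.0582 after quantile normalization, limma). Of 11 Sertoli cell markers, Wt1 was higher (0.545), Dmrt1 lower (-0.765) and 9 neither, with a median of 0.10 and a summed level of 13.36 to 13.40 in control and 13.19 to 13.32 in knockdown cells. Among 10 markers of fibroblasts and feeder cells, 1 rose (Twist1, 0.425), 1 fell (Acta2, -0.41) and 8 did neither, with a median of 0.055 and a summed level of 13.79 to 13.92 in control and 13.82 to 13.88 in knockdown cells. The largest term of the Sertoli sum was Tjp1, with 12.39 and 12.37 in control and 12.18 and 12.22 in knockdown cells. For the fibroblast sum it was Vim, with 13.35 and 13.52 in control and 13.37 and 13.47 in knockdown cells. Tjp1 and Vim were chosen after their values were seen, and these sums rest largely on those probe sets. The part of any of these cell types in the Rhox values was not tested. In these bulk samples fewer cells that express a gene and less RNA per cell cannot be told apart.

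Genes whose pattern over the 4 arrays was closest to that of Rhox9 were found from each gene's deviations from its own mean. The 5 nearest lay within a root mean square distance of 0.0855 on the log2 scale. They were Bhlhe41, a circadian repressor (-1.22), Ptch1, the Hedgehog receptor (-1.135), Cxcl16, a chemokine (-1.005), Rragd, a Rag GTPase (-0.975), and Myb, a transcription factor (-1.17). In each the knockdown replicate 2 array was the lowest of the 4, as in Rhox9. The 5 nearest to Rhox6 lay within 0.01 and were Gas2l3, Mospd2, Sh2d3c, Tex2 and Sult5a1, with differences of -0.33 to -0.32. With 4 arrays many genes share such a pattern, so these names describe likeness of values only.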

How the data were processed

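Expression was measured on 4 Affymetrix MoGene 1.0 ST arrays. The deposited table holds log2 values per probe set. The submitters' processing notes name Affymetrix Expression Console; how it corrected background, summarised probes and scaled arrays was not stated. The values, from 3.12 to 14.74, show the log2 scale. Values are not centred per gene. The number of arrays limits the precision.

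Of 35557 probe sets, 21789 had 1 gene symbol, 1621 several and 12147 none. Symbols were updated through Entrez IDs in RefSeq (GRCm38.p6), which matched 21698 and changed 0. The probe set with the highest mean was kept, giving 19938 genes. Groups were taken from sample titles and compared with limma 3.58.1 in R 4.3.3 (lmFit, eBayes with a prior of 3.9 degrees of freedom, two-sided, adjusted over all genes by Benjamini-Hochberg, threshold 0.05). The procedure was tested on simulated data.

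The members and lists were chosen with earlier results of these data known. Every member is named; from each other list, up to 5 called genes, or 2 as values where none was called, and up to 4 flanking genes on each side. Esx1, Peg10, Ifitm3, Tjp1 and Vim fall outside this rule. Alternatives were each array left out, a replicate block, quantile normalization, centring on the array median, a filter at 8.52, averaged probe sets per gene, an intensity trend, a robust prior and a threshold of 0.1.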

Additional observations from a re-analysis of the deposited data

How the results depend on the processing

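Rhox9, Rhox6 and Rhox1 kept their negative sign under all 12 alternatives, with differences of -1.35 to -0.90, -0.375 to -0.275 and -0.30 to -0.19. With each array left out in turn limma called 0 genes, against 2431 with all 4 arrays, and so 0 Rhox genes lower against 2, although 3495 to 4215 genes had an unadjusted p under 0.05. The replicate block, which assumes that the same number pairs arrays, also left 0 genes and 0 Rhox genes called, with 5411 at an unadjusted p under 0.05. The labels do not say that numbers mark a shared batch, so the numbers were not taken to pair the arrays. Deviations of same-numbered arrays from their group means correlated at 0.0954 across genes. With 2 arrays per group this is a single value, and it does not settle whether the numbers mark a batch. A threshold of 0.1 called 4156 genes and 3 Rhox genes lower. Among the genes named by the rule, reversals occurred only in gamma genes. With each array left out Rhox11 ran from -0.205 (without control replicate 2) to 0.005 (without control replicate 1), Rhox12 from -0.16 to 0.07 for the same arrays, and Rhox13 from -0.045 (without knockdown replicate 2) to 0.125 (without knockdown replicate 1). Rhox13 was at -0.0044 after quantile normalization. The cause was not tested. The 38 other called genes of the naming rule all lost their call under the block and with any array left out, and 0 reversed under any alternative. The filter on dim genes removed Rhox10, Rhox11, Rhox12 and Rhox13.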
